A study of Mus musculus with 5 samples.

Results

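Binding of ATRX in cultured mouse neurons that carried MICAL1-M1 was compared with binding in neurons that carried mCherry, both at day 14 in vitro (DIV14). The comparison covers the peaks called on chromosomes 1 to 19, 140005 in the MICAL1-M1 list and 96230 in the mCherry list, together 236235 of the 651098 peaks in the 4 lists of the series. Both cultures were primary neurons from C57BL6/J embryos of stage E15.5 to E17.5, kept in a neuronal medium with 2% fetal bovine serum and given lentivirus on day 5 in vitro. One group received mCherry, a fluorescent protein that serves as the control, and the other a MICAL1 construct labelled MICAL1-M1, whose design the labels do not describe. The labels do not name the promoter of the lentivirus, the brain region, or the share of neurons that were infected. The peaks of the library labelled MICAL1-M1 are named "M2_peak" inside its file, and this mismatch could not be settled from the labels. Each group is 1 library, so no difference between the groups has a replicate check and no test was made between them. Intervals are exact 95% binomial intervals (Clopper-Pearson) and cover counting error only.

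ATRX is a chromatin remodeller that acts with the histone chaperone DAXX to place the histone variant H3.3 at heterochromatin, telomeres and other repeats, and it is known to bind G-rich sequence that can fold into quadruplexes. In neurons it is best known from an X-linked intellectual disability caused by its loss. MICAL1 is an enzyme that oxidises actin filaments and takes them apart, and RAB GTPases bind it and release it from its own inhibition. TBC1D3, expressed in another library of the series, belongs to a family of proteins with a RAB GTPase-activating domain. By its title, the series asked how an axis found in hominoids sets the pace at which synapses mature.

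Promoters from each kind of site are shown here because part of the results concerns the sequence at gene starts. They are the first 2 genes with a listed start near the summit in each of 3 rankings by p: occupied in both lists, occupied in the MICAL1-M1 list only, and occupied in the control list only. Each line gives the 250 bases before the start of transcription, 5′ to 3′ on the strand of the gene, from RefSeq for GRCm38.p6, with CG dinucleotides in capitals. The shared pair is Jun (chr4:95052223-95052472, minus strand) and Phyhipl (chr10:70599292-70599541, minus strand). The pair with a MICAL1-M1 peak only is Gm32687 (chr10:81863641-81863890, plus strand) and Wdhd1 (chr14:47276858-47277107, minus strand). The pair with a control peak only is Zfp869 (chr8:69716903-69717152, minus strand) and Eml6 (chr11:30026034-30026283, minus strand). The stretches are set by the start and not by the peak. The Jun stretch lies outside the Jun peak of either list, which begins at 95052516 in the control and at 95052539 in MICAL1-M1. The Zfp869 peak ends at 69716913, so most of that stretch lies outside it.
Jun: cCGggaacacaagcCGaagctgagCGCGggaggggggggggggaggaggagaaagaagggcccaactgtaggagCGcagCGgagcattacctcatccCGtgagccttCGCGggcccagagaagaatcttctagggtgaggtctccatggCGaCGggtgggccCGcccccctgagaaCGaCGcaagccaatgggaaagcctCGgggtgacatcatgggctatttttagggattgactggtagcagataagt
Phyhipl: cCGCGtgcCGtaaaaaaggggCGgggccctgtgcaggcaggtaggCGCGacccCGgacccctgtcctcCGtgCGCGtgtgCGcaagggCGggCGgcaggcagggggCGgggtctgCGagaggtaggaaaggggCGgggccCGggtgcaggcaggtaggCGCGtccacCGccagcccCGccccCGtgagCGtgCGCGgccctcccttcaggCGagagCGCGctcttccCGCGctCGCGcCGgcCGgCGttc
Gm32687: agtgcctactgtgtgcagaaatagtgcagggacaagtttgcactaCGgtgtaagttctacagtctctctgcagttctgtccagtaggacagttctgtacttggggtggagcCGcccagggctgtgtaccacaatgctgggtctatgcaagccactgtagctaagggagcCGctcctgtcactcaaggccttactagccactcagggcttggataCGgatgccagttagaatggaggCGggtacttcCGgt
Wdhd1: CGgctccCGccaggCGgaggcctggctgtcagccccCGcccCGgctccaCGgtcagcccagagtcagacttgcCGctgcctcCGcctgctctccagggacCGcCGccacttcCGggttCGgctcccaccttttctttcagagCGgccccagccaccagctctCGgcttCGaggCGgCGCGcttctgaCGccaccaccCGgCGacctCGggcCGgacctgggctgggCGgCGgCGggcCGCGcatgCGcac
Zfp869: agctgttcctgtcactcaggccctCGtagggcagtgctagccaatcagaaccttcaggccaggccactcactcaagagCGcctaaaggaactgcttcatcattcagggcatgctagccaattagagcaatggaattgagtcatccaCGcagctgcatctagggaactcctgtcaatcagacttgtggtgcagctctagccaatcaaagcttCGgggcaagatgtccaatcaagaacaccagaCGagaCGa
Eml6: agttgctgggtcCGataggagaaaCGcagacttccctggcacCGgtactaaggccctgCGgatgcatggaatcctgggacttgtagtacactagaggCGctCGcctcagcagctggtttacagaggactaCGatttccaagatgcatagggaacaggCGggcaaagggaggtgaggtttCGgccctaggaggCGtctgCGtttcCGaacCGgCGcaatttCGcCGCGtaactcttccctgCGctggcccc
The printed stretches held 15 CG dinucleotides at Jun, 35 at Phyhipl, 6 at Gm32687, 29 at Wdhd1, 6 at Zfp869 and 18 at Eml6, so that each pair held a start poorer and a start richer in CG.

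The lists differed in depth and in strength. From fold and p, a whole number of fragments under each summit (the pileup) could be recovered for at least 99.98% of the peaks. The background that the caller used over most of the genome was 3.56 fragments in the control and 2.61 in MICAL1-M1, so the MICAL1-M1 library was the shallower one on this measure. The weakest control peaks stood on 7 fragments and the weakest MICAL1-M1 peaks on 5, with medians of 9 and 7. A q-value, the p-value corrected over the genome, of 0.05 or less was held by 4029 control peaks (4.19%) and by 616 MICAL1-M1 peaks (0.44%). The MICAL1-M1 list was therefore the longer and the weaker of the 2. Read totals were not analysed here, and depth and condition cannot be told apart between 2 single libraries. To take list length out of the comparison, the 96230 MICAL1-M1 peaks of smallest p were set against the whole control list (lists of equal size), which put the limit at a p of 0.0175.

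Most peaks of either list had no counterpart in the other. Of the control peaks, 21694 (22.5%, interval 22.3 to 22.8%) were overlapped by at least 1 base of a MICAL1-M1 peak, and 22184 MICAL1-M1 peaks (15.8%, interval 15.7 to 16%) by a control peak. With no counterpart were thus 77.5% of the control peaks and 84.2% of the MICAL1-M1 peaks. At equal size the overlapped shares were 18.7% and 18.9%. The MICAL1-M1 list covers 2.85% of the chromosome range, and 13.3% of the control summits lay inside it, a ratio of 4.66 to its cover. At equal size that ratio was 5.44. In shared pairs the summits lay a median of 264 bp apart, and the fold over background in the 2 libraries ranked alike only weakly (Spearman 0.14 across 21694 pairs, a description, since pairs are not replicates).

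Sharing followed strength. In the 10% of the control list with the smallest p, 52.1% (interval 51.0 to 53.1%) of the peaks had a MICAL1-M1 counterpart, against 12.9% in the weakest 10%. In the MICAL1-M1 list the strongest 10% reached 37.9% and the weakest 6.44%. The fall was not even from step to step; the share rose from 11.5% to 17.5% between steps 8 and 9 of the control and from 10.6% to 17.3% between steps 5 and 6 of MICAL1-M1. Of the 616 MICAL1-M1 peaks with a q of at most 0.05, 472 (76.6%, interval 73.1 to 79.9%) had a counterpart anywhere in the control list. Among these 616 peaks, the 258 at gene ends had one in 228 cases (88.4%), the 216 in gene bodies in 75% and the 142 outside genes in 57.7%. In the other direction, 2564 of the 4029 control peaks at this q (63.6%) had a counterpart anywhere in the MICAL1-M1 list. Asking for the same q on both sides left 181 of the 616 MICAL1-M1 peaks (29.4%) and 180 of the 4029 control peaks (4.47%).

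**Figure D1:**
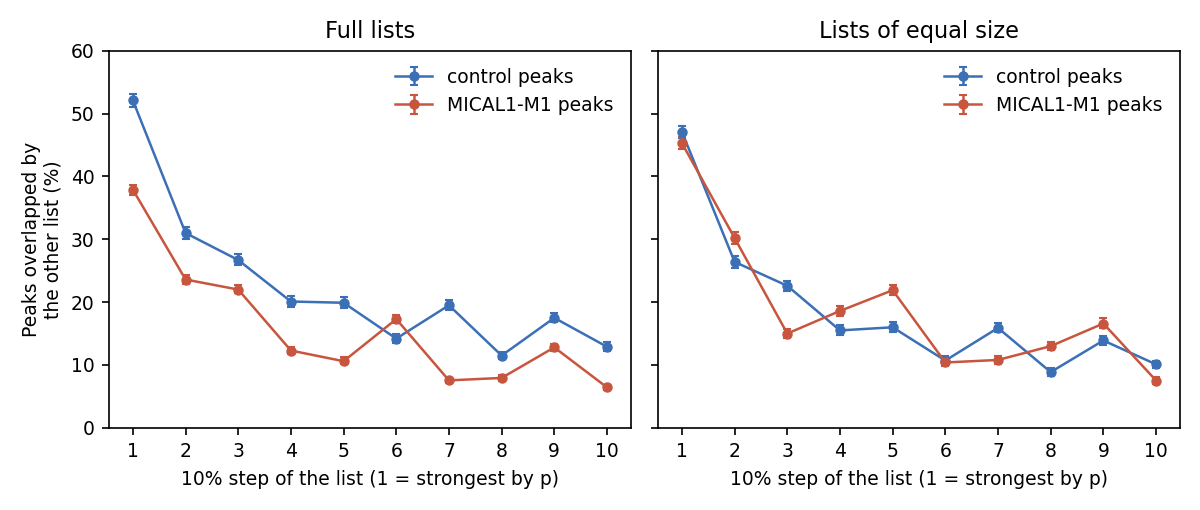
Share of peaks overlapped by at least 1 base of a peak in the other list (vertical axis, %), by 10% step of the list from the smallest to the largest p (horizontal axis), for control peaks (blue) and MICAL1-M1 peaks (red), with full lists on the left and lists of equal size on the right. Bars are exact 95% binomial intervals. In the full lists the share fell from 52.1% to 12.9% for the control and from 37.9% to 6.44% for MICAL1-M1, with rises on the way, the largest from 10.6% to 17.3% in MICAL1-M1 and from 11.5% to 17.5% in the control.

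Peaks present in both libraries were gathered at the ends of genes, and peaks of the MICAL1-M1 library alone were there little more often than the length of these stretches gives. A gene end was the stretch within 1 kb of either end of a protein-coding gene, and these stretches take up 3.1% of the chromosome range. Of the shared control peaks, 22.7% (interval 22.1 to 23.3%) had their summit there, 7.33 times the share of the range. Of the control-only peaks 6.16% (5.99 to 6.34%) did, and of the MICAL1-M1-only peaks 3.4% (3.30 to 3.51%), 1.10 times the share of the range. At equal size these shares were 24.8%, 6.45% and 3.86%, in the same order. Gene bodies away from the ends held 45.5% of the shared, 48.1% of the control-only and 45% of the MICAL1-M1-only summits, with 39.2% of the range. Outside genes, where 57.7% of the range lies, fell 31.8%, 45.7% and 51.6%.

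**Figure D2:**
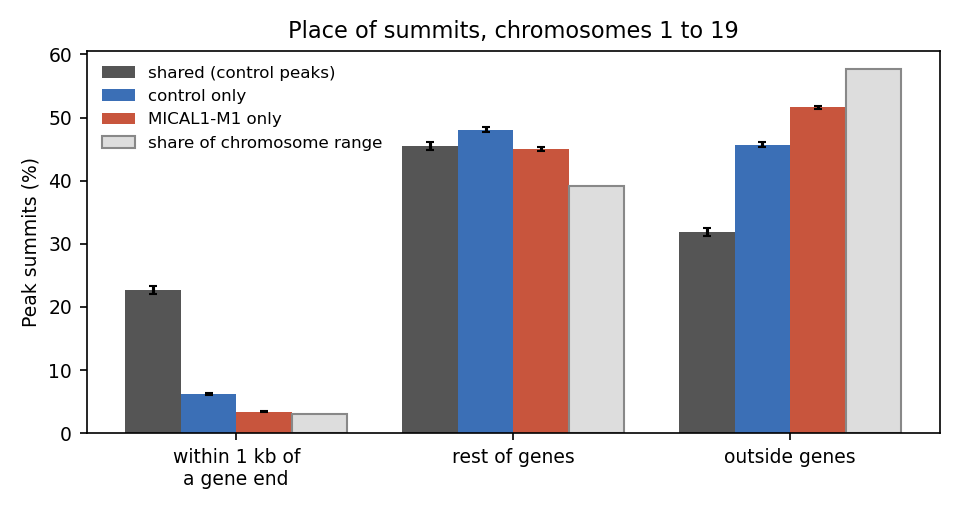
Share of peak summits (vertical axis, %) within 1 kb of a gene end, in the rest of protein-coding genes and outside them, for shared control peaks (dark grey), control-only peaks (blue) and MICAL1-M1-only peaks (red), with exact 95% binomial intervals, beside the share of the range of chromosomes 1 to 19 in each place (light grey). At gene ends the shared peaks reach 22.7%, the control-only peaks 6.16% and the MICAL1-M1-only peaks 3.4%, where the range has 3.1%.

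The gathering was at the start of transcription and leaned to its downstream side. Within 1 kb of one of 20085 listed starts (1.46% of the range) lay 20.9% of the shared control summits, 4.84% of the control-only and 2.23% of the MICAL1-M1-only summits. In each class more of these summits lay downstream than upstream of the start: 62.0% (60.5 to 63.4%) of the shared, 60.7% (59.0 to 62.3%) of the control-only and 57.3% (55.3 to 59.2%) of the MICAL1-M1-only summits. The first 250 bp downstream held more summits than any other 250 bp step within 3 kb of the start in every class. Per 10000 peaks that step held 699 summits of the shared control peaks, 141 of the control-only and 47.3 of the MICAL1-M1-only peaks. Over the whole lists it held 266 per 10000 control peaks and 134 per 10000 MICAL1-M1 peaks. Starts on chromosome 18 were not used here, so the profile and the promoter values leave that chromosome out. The 20.9%, 4.84% and 2.23% are shares of all peaks, chromosome 18 included, and are thus somewhat low. The 1.46% is likewise a share of the whole range.

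**Figure D3:**
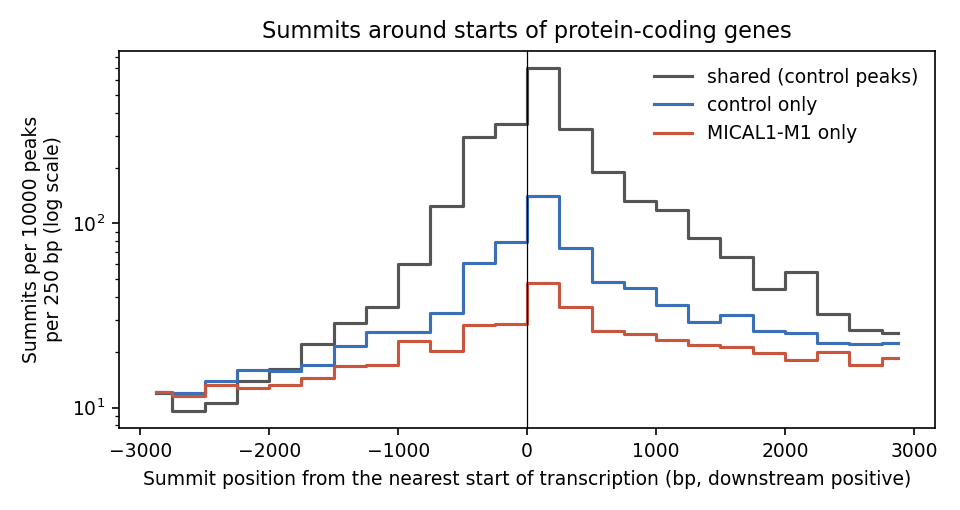
Summits per 10000 peaks in steps of 250 bp (vertical axis, log scale) by distance from the nearest start of transcription of a protein-coding gene (horizontal axis, bp, downstream positive), for shared control peaks (dark grey), control-only peaks (blue) and MICAL1-M1-only peaks (red) in the full lists. All 3 lines peak in the first 250 bp downstream, at 699, 141 and 47.3.

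Shared peaks were also the wider and higher ones. The median width was 611.5 bp for shared control peaks and 405 bp for control-only peaks, and 553 bp against 390 bp on the MICAL1-M1 side. A width over 1 kb was found in 23.6% of the shared and 3.89% of the control-only peaks, and in 16.1% of the shared and 2.15% of the MICAL1-M1-only peaks. Since a wide peak has more bases to be hit, sharing was also counted by summits within 200 bp of each other. That lowered the shared share of the control list to 9.12%, and the summits of these peaks still lay at gene ends in 23.8% of cases, against 8.50% of the other control peaks and 5.3% of the other MICAL1-M1 peaks. For peaks found in only 1 of the 2 lists, a summit of the other list within 1 kb was uncommon. It was there for 13.1% of the control-only and 8.33% of the MICAL1-M1-only peaks. The nearest summit of the other list was a median of 3771 bp away for control-only and 6966 bp for MICAL1-M1-only peaks. At equal size these medians were 5429 and 6485 bp, so the gap between them depended on list length.

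The other libraries of the series, TBC1D3 at DIV14 and mCherry at DIV7, gave a readout that played no part in sorting the peaks. Their lists cover 3.02% and 3.26% of the range, which is a share of single bases and not the level for overlap by whole peaks. Of the shared control peaks 23.5% (22.9 to 24.0%) were overlapped in TBC1D3 and 20.4% (19.8 to 20.9%) at DIV7. Of the MICAL1-M1-only peaks 10.3% (10.1 to 10.4%) and 8.79% (8.63 to 8.96%) were, and of the control-only peaks 9.57% (9.36 to 9.78%) and 9.76% (9.55 to 9.98%). Shared peaks were thus met more often in both other libraries than peaks of either library alone. Overlap was counted from 1 base on, and shared control peaks were wider than control-only peaks (medians of 611.5 and 405 bp). The part of width in this order was not tested. The MICAL1-M1-only peaks were met more often in TBC1D3 than at DIV7, and the control-only peaks were met in both alike, with intervals that overlap.

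Between chromosomes the lists hardly differed. The share of MICAL1-M1 peaks over the share of control peaks ran from 0.952 on chromosome 11 to 1.049 on chromosome 16. Peaks per 1 Mb followed each other across 2413 bins (Pearson r 0.90, a description across bins that share base composition and mappability). Within this common pattern, bins without a protein-coding gene held fewer peaks than their 11.2% of the range in both lists, and less so in MICAL1-M1. They held 7.15% of the control peaks, 9.19% of the MICAL1-M1 peaks and 8.59% of those at equal size, and 10.1% of the MICAL1-M1-only peaks. Bins with over 20 genes, 10% of the range, held 7.85% of the control peaks, 6.63% of the MICAL1-M1 peaks and 6.96% at equal size. The share of control peaks with a counterpart rose with each step of gene number, from 13.5% in bins without genes to 31.0% in bins with over 20.

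Single bins stood away from the pattern in both directions at equal size. The 5 bins most in favour of the control held 115 to 187 control peaks and 77 to 127 MICAL1-M1 peaks, and the first, on chromosome 2 from 7 to 8 Mb, reaches into Celf2, which codes for an RNA-binding regulator of splicing. The 5 bins most in favour of MICAL1-M1 held 23 to 38 control peaks and 56 to 81 MICAL1-M1 peaks. Of these, the bin on chromosome 2 from 115 to 116 Mb holds Meis2, a homeobox gene, with 38 control and 81 MICAL1-M1 peaks. The bin on chromosome 2 from 46 to 47 Mb holds no protein-coding gene, with 23 and 56.

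**Figure D4:**
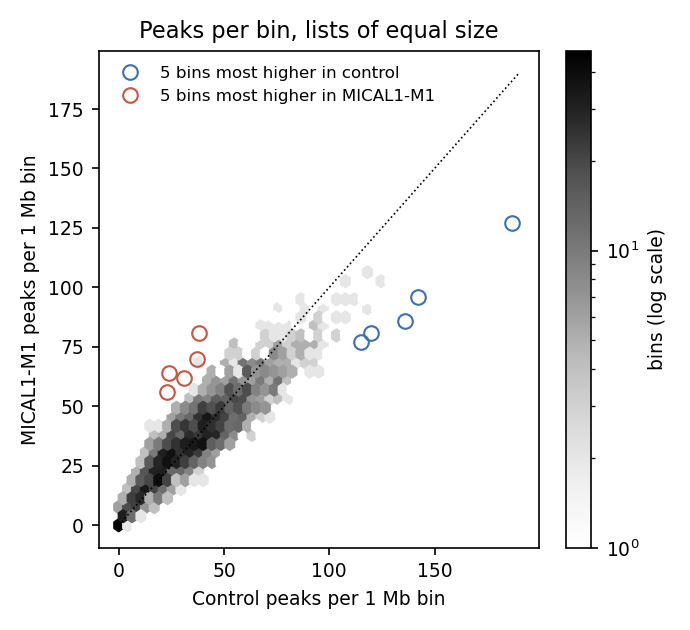
Peaks per 1 Mb bin in the control list (horizontal axis) and in the MICAL1-M1 list of equal size (vertical axis), with grey showing the number of bins on a log scale and the dotted line equal numbers. Circles mark the 5 bins furthest to the control side (blue, 115 to 187 control and 77 to 127 MICAL1-M1 peaks) and to the MICAL1-M1 side (red, 23 to 38 and 56 to 81).

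The bodies of very long neuronal genes held many peaks of both libraries. At equal size Celf2 (857 kb, chromosome 2) held 186 control and 132 MICAL1-M1 summits, and 50 of its control peaks were shared, the most of any gene. Csmd1, a large complement-control membrane protein of 1643 kb, held 215 and 172, with 42 shared. Tcf4, the transcription factor gene affected in Pitt-Hopkins syndrome, held 91 and 87, Sox5 held 110 and 96, and the calcium sensor Ncald 73 and 63. These 5 were named because they had the most shared peaks, so their level is a description.

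Across genes of all lengths, the share of control peaks with a MICAL1-M1 counterpart fell as genes grew longer. A larger part of a short gene lies within 1 kb of an end, where control peaks were shared more often. At equal size 4474 shared and 5044 control-only summits lay at gene ends, and 8088 and 37631 in the bodies away from them. No value with the ends left out is given, so the part of the ends in this fall was not tested. The shared share at equal size was 41.3% in the 7342 genes under 10 kb, 22.8% in the 2412 genes of 50 to 100 kb and 15.4% in the 216 genes over 500 kb. Genes under 10 kb held 41.9 control-only and 29.0 MICAL1-M1-only summits per Mb, and genes over 500 kb 53.0 and 49.8. With full lists, a summit at an end was found in 30.2% of the genes under 10 kb in the control and 27.9% in MICAL1-M1, and in 68.5% and 69.0% of those over 500 kb.

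Other long genes stood apart between the lists. Adarb2, of the RNA-editing enzyme family, held 10 control and 39 MICAL1-M1 summits at equal size, Gpc5, a heparan sulphate proteoglycan, 29 and 63, and Fhit, at a common fragile site, 89 and 126. Pcdh15 held 63 and 93, and Hs6st3, a heparan sulphate sulphotransferase, 41 and 63. Per 10000 peaks of each list, Adarb2 had 1.04 in the control, 3.36 in MICAL1-M1, 2.72 in TBC1D3 and 2.17 at DIV7, so that the control was the lowest of the 4. Gpc5 likewise had 3.01, 6.50, 4.77 and 5.59. In Fhit (9.25, 12.5, 8.25 and 8.34), Pcdh15 (6.55, 9.50, 6.25 and 7.04) and Hs6st3 (4.26, 6.21, 3.79 and 3.18) the control was not the lowest, and MICAL1-M1 was the highest in all 5 genes. In the other direction Adgrb3, an adhesion receptor of synapses, held 117 and 73, Tenm2, a synaptic teneurin, 120 and 81, and Bach2, a transcription repressor, 73 and 42. Per 10000 peaks Adgrb3 had 12.2 in the control, 7.36 in MICAL1-M1, 4 in TBC1D3 and 3.33 at DIV7. For Adgrb3, Tenm2, Bach2, Celf2 and Csmd1 the control was the highest of the 4 libraries. Genes were picked for these differences, and the comparison between lists shares the control, so nothing is tested here.

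At gene ends, 5884 of 20665 protein-coding genes on chromosomes 1 to 19 had a summit in both lists (28.5%), 2458 in the MICAL1-M1 list only (11.9%) and 3266 in the control list only (15.8%). Occupied here means that either end of the gene has a summit no further than 1 kb away, whatever its q. At equal size these were 5301 (25.7%), 1951 (9.44%) and 3849 (18.6%). Of the 9150 genes occupied in the control (44.3%), 64.3% kept a summit in the MICAL1-M1 list, and 57.9% did at equal size. Of the 8342 genes occupied in MICAL1-M1 (40.4%; 7252 or 35.1% at equal size), 70.5% were occupied in the control. With a q of at most 0.05 on both sides, 103 genes were occupied in both, 187 in MICAL1-M1 only and 1746 in the control only. These counts are the background against which each gene group below is read. Members of gene groups that are named with values below, other than those of the rankings by p, were picked after their values were seen.

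Occupied starts had many more CG dinucleotides than empty ones by median, and starts occupied in both libraries had the most. The median number of CG in the 300 bases around the start (250 before to 50 after) was 23 for starts occupied in both lists, 20 for control only, 18 for MICAL1-M1 only and 4 for neither. The median GC content of the 3 occupied classes fell in the same order, 63.3%, 60.7% and 59.3%. Starts with over 30 CG were occupied in 74.8% of cases in the control and 66.0% in MICAL1-M1. Starts with at most 2 CG were occupied in 4.15% and 5.60%, and starts with 3 to 5 CG in 13.7% and 13.8%; in the other 6 classes of CG number the control was the higher. At equal size MICAL1-M1 was the lower in all 8 classes, with ratios to the control of 0.93 in the class with fewest CG and 0.73 to 0.83 in the others. The promoters of Phyhipl and Wdhd1 shown above lie in the class with over 30 CG, with 43 and 36 in their 300 bases.

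Short motifs were counted in the same starts. A run pattern of the kind that can form a G-quadruplex (4 runs of at least 3 G with gaps of 1 to 7 bases, searched on both strands) was present in 31.5% (30.3 to 32.7%) of starts occupied in both lists, 27.6% (25.7 to 29.6%) of those with MICAL1-M1 only, 28.0% (26.5 to 29.6%) of those with control only, 13.5% of those with neither and 22.5% of all. The 2 one-sided classes had intervals that overlap. The GC box GGGCGG, on either strand, was in 70.5%, 56.3%, 62.5% and 24.2% of the same 4 classes and 47.0% of all starts. TATAAA, on either strand, was least frequent where both lists had a summit (5.86%), at 9.50% for MICAL1-M1 only, 7.54% for control only and 19.7% for neither, with 12.7% of all. CACGTG, the E-box, was in 10.2% of starts occupied in both, 8.13% with MICAL1-M1 only, 10% with control only and 5.55% with neither (7.89% of all), and TGACGTCA, the cAMP response element, in 3.67%, 2.27%, 3.11% and 1.14% (2.30% of all). The NRF1 motif did not follow this order, at 1.71% (1.39 to 2.08%), 1.84% (1.31 to 2.51%), 2.26% (1.78 to 2.83%) and 0.658% (1.34% of all). The last 3 read the same on both strands. A match is only a description of these letters, and overlaps with CG number were not taken out.

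Egr1 and Jun led the gene ends that both libraries held. Egr1, an immediate early transcription factor on chromosome 18, had the strongest shared gene end, with 8.61-fold over background on 46 fragments in the control (q 2.0e-25) and 4.87-fold on 32 fragments in MICAL1-M1 (q 7.6e-10). Jun, a subunit of the AP-1 factor, had 5.04-fold on 22 fragments and 4.37-fold on 16, and the next 3 were Pcdh7, a protocadherin, A830018L16Rik and Phyhipl. Relative to the start shown above, the summit at Jun was at -546 bp in the control and at -743 bp in MICAL1-M1, upstream in both. Phc2, a Polycomb subunit, Dtwd2, Zswim6, Socs5, an inhibitor of cytokine signalling, and Pccb, a mitochondrial carboxylase subunit, completed the first 10. All 10 had a q of at most 0.05 in both lists, with 3.67- to 8.61-fold in the control and 3.99- to 4.87-fold in MICAL1-M1. Folds are the authors' own and rest on different backgrounds, so they order peaks within a list and show no change between lists.

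Gene ends with a MICAL1-M1 peak and not a single base of a control peak numbered 2093 (10.1% of genes), and with a control peak and no base of a MICAL1-M1 peak 2820 (13.6%). The first of the MICAL1-M1 side was Gm32687 at 4.58-fold on 18 fragments (q 0.00011). Next came one peak of 4.41-fold between Wdhd1, a replication factor, and Socs4, whose starts are neighbours, followed by Mrpl33, a mitochondrial ribosomal protein, one peak at Elmod3 and Retsat, Zfp207, Svop, a synaptic vesicle protein, and one peak at Mcm4 and Prkdc, genes of DNA replication and of DNA end joining. Thus 3 of these peaks account for 6 of the 10 genes. Within 100 genes of the top, members of the gene lists below included Gap43, the growth cone protein (3.88-fold, 13 fragments, q 0.033), Tanc2, a postsynaptic scaffold, the histone H1f2, Mrpl12, the homeobox gene Dlx5 (3.28-fold, 11 fragments, q 0.32) and Zfp991.

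The control-only side was led by Zfp869, a zinc finger gene, with 5.26-fold on 23 fragments (q 2.7e-07), and by Eml6, a microtubule-associated protein, with 4.76-fold on 25. Ints14, of the Integrator complex, one peak at Chd1l and Fmo5, one at Gm31649 and Trim28, Actr5, Wdr36 and Ufl1 followed. Trim28 codes for the corepressor KAP1, which KRAB zinc finger proteins bring to their targets, and its peak had 4.77-fold on 22 fragments (q 5.2e-06). An end of Trim28 also had a summit in TBC1D3 and none at DIV7. Further list members within the first 100 included Morc3, Zfp827, Zfp119a, Prpf4, Cntn2, Hnrnpa0, Prpf39, Zfp62, Zfp251, Bcl11b and Sdha. Of the 10 leading control-only genes, Zfp869, Eml6, Ints14, Actr5, and Chd1l and Fmo5 with their common peak, had no summit in either of the other libraries. Lacking one was also usual among all 3266 control-only genes, of which 35.2% had a summit in TBC1D3 and 36.7% at DIV7.

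Developmental genes had more members with a MICAL1-M1 peak only than with a control peak only. Of 207 developmental transcription factor and Wnt genes, 80 were occupied in MICAL1-M1 and 55 in the control: 34 in both, 46 in MICAL1-M1 only (22.2%, interval 16.8 to 28.5%, beside 11.9% of all genes) and 21 in the control only (10.1%, interval 6.39 to 15.1%, beside 15.8%). With no base of the other list allowed the counts were 41 and 19. At equal size they were 34 (16.4% beside 9.44%) and 23 (11.1% beside 18.6%). The peaks were weak: the 46 had a median of 2.22-fold on 7 fragments, none with a q of at most 0.05, and when only peaks with such a q were counted the order turned, with 6 genes in the control and 1 in MICAL1-M1. The order stood under the other 9 alternatives. Of the 46 genes, 25 (54.3%) also had a summit in TBC1D3 and 22 (47.8%) at DIV7, beside 41.7% and 35.6% of all genes with MICAL1-M1 only. The control-only genes of the list had one in 11 of 21 cases (52.4%) in each, beside 35.2% and 36.7% of all genes with control only.

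The families of the list differed in their counts, which are small. Over all genes 28.5% were occupied in both lists, 11.9% in MICAL1-M1 only and 15.8% in the control only. Of 14 Nkx genes, homeobox factors that pattern the ventral neural tube and other organs, 2 were occupied in both, 6 in MICAL1-M1 only and 0 in the control only. The 6 were Nkx1-1, Nkx2-2, Nkx2-5, Nkx2-6, Nkx2-9 and Nkx6-1, at 2.22-fold on 7 fragments except Nkx2-6 with 2.77-fold on 9. Of 19 Wnt genes, which code for secreted ligands, 4 were occupied in both, 7 in MICAL1-M1 only and 1, Wnt8b, in the control only. At equal size 4 Wnt genes were left with MICAL1-M1 only, since Wnt5b, Wnt7b and Wnt9a stood on 5 fragments each. Dlx5 and Dlx6 of 6 Dlx genes and Zic2 and Zic5 of 4 Zic genes had MICAL1-M1 peaks only, and no Dlx or Zic gene had a control peak only. Dlx5 and Dlx6 are neighbours, as are Zic2 and Zic5. Of 8 Lhx genes, 2 were occupied in both, 0 in MICAL1-M1 only and 2 in the control only. Of 39 Hox genes, 0 were occupied in both, 5 in MICAL1-M1 only, close to the share of all genes, and 3 in the control only. Of 18 Sox genes, 9 were occupied in both lists, with Sox2 in MICAL1-M1 only (2.82-fold, 11 fragments) and Sox30 in the control only, and the eye and forebrain factor Pax6 in the control only (2.41-fold, 10 fragments). Families were singled out after their counts were seen.

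MICAL, RAB and actin genes had more members with a control peak only than with a MICAL1-M1 peak only, the order that all genes have. Of 87 MICAL, RAB and actin regulator genes, 44 were occupied in both lists, 5 in MICAL1-M1 only (5.75%, interval 1.89 to 12.9%, beside 11.9%) and 23 in the control only (26.4%, interval 17.6 to 37.0%, beside 15.8%). At equal size the counts were 40, 5 and 27, and the control had the higher number under all 10 alternatives. Of the 23 genes, 0 had a control peak with a q of at most 0.05. The 5 genes were Mical2, Rab10, Rab18, Rab44 and Rac1. Of 55 Rab genes, small GTPases of vesicle traffic, 31 were occupied in both, 3 in MICAL1-M1 only and 13 in the control only. Rab7 and Rab8a, of late endosomes and of secretion to the membrane, each had 3.07-fold on 13 fragments in the control, and Rhoa, a regulator of actin, 2.88-fold on 14. Rab10 had 3.05-fold on 10 fragments in MICAL1-M1.

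The gene of the construct itself had 1 weak peak. At Mical1 (chr10:41475860-41487030, 11.2 kb) a control peak of 1.87-fold on 8 fragments (q 1) lay within 1 kb of an end, with none in MICAL1-M1. Mical2 had a MICAL1-M1 peak of 3.32-fold on 11 fragments, Micall1 a peak in both lists and Micall2 one in the control only. A peak count says nothing of the expression of the construct. Daxx (chr17:33909404-33915590) had a MICAL1-M1 peak of 1.62-fold on 10 fragments (q 1), which dropped out at equal size. Atrx is on the X chromosome and outside the comparison.

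**Figure D5:**
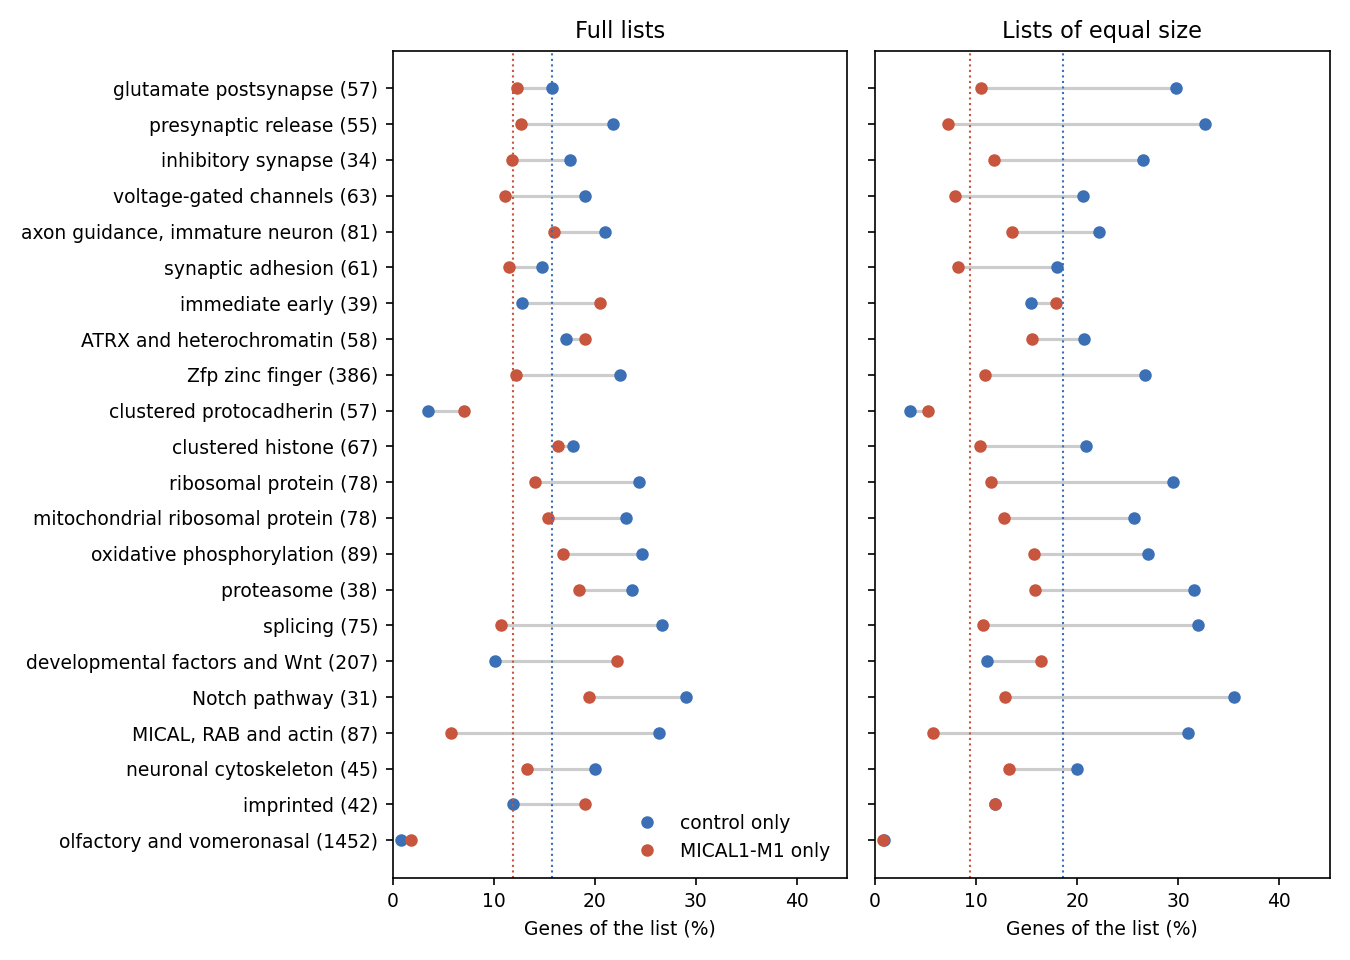
Share of each gene list other than the cell type markers (horizontal axis, %; number of genes in brackets) occupied in the control list only (blue) and in the MICAL1-M1 list only (red), in the full lists (left) and at equal size (right). Dotted lines give the shares of all 20665 protein-coding genes, 15.8% and 11.9% on the left, 18.6% and 9.44% on the right. Of the lists plotted, developmental factors and Wnt genes have the highest MICAL1-M1-only share in the full lists (22.2%), and MICAL, RAB and actin genes are among the lowest (5.75%).

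Splicing, ribosomal protein, oxidative phosphorylation and zinc finger genes had more members with a control peak only than with a MICAL1-M1 peak only, the order that all genes have. Of 75 splicing genes, 29 were occupied in both, 8 in MICAL1-M1 only (10.7% beside 11.9%) and 20 in the control only (26.7%, interval 17.1 to 38.1%, beside 15.8%), among them Srsf2, Hnrnpc, Prpf4, Prpf39 and Hnrnpa0. Ribosomal proteins (78 genes) had 11 and 19, oxidative phosphorylation genes (89) 15 and 22, and Zfp zinc finger genes (386) 47 and 87. The MICAL1-M1-only shares of these 3 were 14.1%, 16.9% and 12.2%, beside 11.9% of all genes. Their control-only shares were 24.4% (interval 15.3 to 35.4%), 24.7% (16.2 to 35.0%) and 22.5% (18.5 to 27.0%), beside 15.8%. In each of these 4 groups, and over all genes, the control had the higher number of occupied genes under all 10 alternatives. Over all genes the margin was narrowest with a 3 kb window, at 11475 genes in the control and 11452 in MICAL1-M1.

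Genes of the glutamate postsynapse and of presynaptic release were occupied in both libraries more often than all genes. At equal size these shares were 43.9% and 38.2%, beside 25.7% of all genes. Of 57 genes of the glutamate postsynapse, 33 were occupied in both lists (57.9% beside 28.5%), 7 in MICAL1-M1 only and 9 in the control only (15.8%, as of all genes). At equal size the counts were 25, 6 and 17 (29.8% beside 18.6%). Gria2, an AMPA receptor subunit, had a control peak of 3.60-fold on 16 fragments (q 0.0086) and none in MICAL1-M1, while Dlg4, the scaffold PSD-95, had 2.49-fold on 8 fragments in MICAL1-M1 and none in the control. Of 55 genes of presynaptic release 27 were occupied in both (49.1%), 7 in MICAL1-M1 only (12.7%) and 12 in the control only (21.8%). At equal size the counts were 21, 4 and 18 (32.7%, interval 20.7 to 46.7%, beside 18.6%). Rims1, an active zone scaffold, had 2.75-fold on 21 fragments in the control (q 0.043), while Syt7, a calcium sensor of release, had 2.44-fold on 8 in MICAL1-M1. Of 31 Notch pathway genes 10 were occupied in both lists (32.3%). A MICAL1-M1 peak only was found at 6 (19.4%, interval 7.45 to 37.5%) and a control peak only at 9 (29.0%, interval 14.2 to 48.0%). Over all genes these shares were 28.5%, 11.9% and 15.8%. At equal size the Notch counts were 8, 4 and 11. Hes1 had a control peak only, with 3.75-fold on 17 fragments (q 0.0039).

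Axon, channel, adhesion, inhibitory synapse and cytoskeleton genes had one-sided shares near or above those of all genes. Those of all genes were 11.9% with MICAL1-M1 only and 15.8% with the control only. In both lists these groups were occupied more often than the 28.5% of all genes. The shares were 46.9% (axon), 39.7% (channel), 54.1% (adhesion), 44.1% (inhibitory synapse) and 57.8% (cytoskeleton). At equal size their control-only shares were 22.2%, 20.6%, 18%, 26.5% and 20%, beside 18.6%. Of 81 genes of axon guidance and immature neurons 38 were occupied in both, 13 in MICAL1-M1 only (16% beside 11.9%) and 17 in the control only (21% beside 15.8%). Of the 13, Gap43 and Plxna2 had a q of at most 0.05. Plxna2, a semaphorin receptor, had 3.95-fold on 17 fragments (q 0.0031), though a control peak reached into its window without a summit there. Ncam1, a neural adhesion molecule, had 4.41-fold on 20 fragments in the control (q 8.4e-05) and none in MICAL1-M1, and Cntn2, an axonal adhesion molecule, 3.94-fold on 17 (q 0.0023). Of 63 voltage-gated channel genes 7 (11.1%) had a MICAL1-M1 peak only and 12 (19%) a control peak only. The counts were 7 (11.5%) and 9 (14.8%) of 61 synaptic adhesion genes, 4 (11.8%) and 6 (17.6%) of 34 inhibitory synapse genes, and 6 (13.3%) and 9 (20%) of 45 genes of the neuronal cytoskeleton. The sodium channel genes Scn1a and Scn3a each had a control peak of 2.63-fold on 11 fragments only, and Gad2, which makes GABA, a MICAL1-M1 peak of 2.77-fold on 9 only. Of 42 imprinted genes 9 were occupied in both, 8 in MICAL1-M1 only and 5 in the control only, and 5 on each side at equal size.

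Immediate early genes, which neurons switch on quickly after activity, had the highest share in both libraries of the gene lists examined. Of 39, 25 were occupied in both lists (64.1%, interval 47.2 to 78.8%, beside 28.5%). A further 8 were occupied in MICAL1-M1 only (20.5% beside 11.9%), 5 in the control only (12.8% beside 15.8%) and 1 in neither. Beside Egr1 and Jun, Arc, a regulator of synaptic strength, had 3.32-fold on 15 fragments in the control and 2.65-fold on 10 in MICAL1-M1, and Junb 3.29-fold on 14 and 3.15-fold on 11. Npas4 and Egr2 had a peak in MICAL1-M1 only, Fosb, Nr4a1 and Bdnf in the control only. The higher number of 33 genes in MICAL1-M1 against 30 was not stable: the order was equal at 30 with the lists cut by fold, and turned with a 3 kb window (38 in the control and 37), with any base (35 and 34) and with a q of at most 0.05 (13 and 3).

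Among 58 genes of ATRX partners and heterochromatin, 28 were occupied in both, 11 in MICAL1-M1 only and 10 in the control only. Hira, the other H3.3 chaperone, had 2.35-fold on 10 fragments in MICAL1-M1 only, and Trim28, Hdac1 and the H3.3 gene H3f3b a peak in the control only. At equal size the list stood at 38 genes in the control and 35 in MICAL1-M1, the reverse of 38 and 39 in the full lists. Of 67 clustered histone genes 33 were occupied in both (49.3%), 11 in MICAL1-M1 only (16.4%) and 12 in the control only (17.9%). Clustered protocadherins, cell surface proteins of neuronal identity whose genes lie in tandem and share sequence, had 21 of 57 in both (36.8%). A MICAL1-M1 peak only was found at 4 (7.02%) and a control peak only at 2 (3.51%). The occupied genes rested on 3 distinct control peaks and 7 distinct MICAL1-M1 peaks, so they are not separate sites. With a 500 bp window the counts fell to 22 genes in the control and 4 in MICAL1-M1. Olfactory and vomeronasal receptor genes, silent in most neurons, were nearly empty, with 2 of 1452 occupied in both (0.138%). There were 26 in MICAL1-M1 only (1.79%) and 12 in the control only (0.826%), and 12 and 13 at equal size.

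Markers of the cell types that such cultures can hold were counted in the same way. Of 19 neuronal markers 9 were occupied in both lists, 5 in MICAL1-M1 only and 4 in the control only. Of 20 astrocyte markers the counts were 8, 1 and 4, of 19 oligodendrocyte markers 6, 4 and 2, of 20 fibroblast and endothelial markers 3, 3 and 3, of 20 progenitor markers 3, 5 and 6, and of 19 microglia markers 0, 1 and 0. The shares in both lists, beside 28.5% of all genes, were 47.4% (24.4 to 71.1%) for neurons and 40% (19.1 to 63.9%) for astrocytes. They were 31.6% (12.6 to 56.6%) for oligodendrocytes and 15% (3.21 to 37.9%) each for the fibroblast and endothelial and the progenitor markers. Microglia markers had 0% (0 to 17.6%), below the intervals of neurons and astrocytes. The other intervals overlap, so no order of cell types is read from them. A peak of ATRX is not expression, so these counts do not give the makeup of the cultures, and the part of cell types in the results was not tested.

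Outside genes, the peaks of smallest p in the MICAL1-M1 list lay in a few places. The first 5 shared peaks in that ranking were on chromosome 2 (chr2:98666541-98667338) and on chromosome 9 within 3017861 to 3025954. They had 1.79- to 2.17-fold in MICAL1-M1, with a -log10 p of 64.2 to 2426.3, and 1.08- to 1.38-fold in the control. The first 5 of MICAL1-M1 only were on the same 2 chromosomes (chr2:98662261-98662755, chr9:3000242-3000642 and chr9:3037828-3038265) and on chromosome 14 (chr14:19416915-19418261 and chr14:19418599-19418961), at 1.51- to 2.12-fold. Each of these 10 peaks was met in TBC1D3 and at DIV7 as well. Their folds in MICAL1-M1 all lay below the median of 2.21 for that list, so the small p does not stand for a high fold here. Pileups were searched only up to a set limit, and none within it was found for these 10 peaks. In the model used to solve the pileup, so small a p at so low a fold goes with a very high background. The first control-only peak outside genes lay 55.5 kb from Stmnd1 on chromosome 13, with 4.56-fold on 21 fragments. Leaving out places where the background was 10 fragments or more, a choice made after the values were seen, the first MICAL1-M1-only peak lay 4.98 kb from Bcl9l on chromosome 9, with 4.71-fold on 16 fragments, and the first shared one 137 kb from Car8 on chromosome 4, with 4.98-fold on 17 fragments in MICAL1-M1 and 2.63-fold in the control.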

How the data were processed

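ATRX ChIP-seq peak lists of 2 libraries (mCherry and MICAL1-M1, both DIV14) were compared on chromosomes 1 to 19, with TBC1D3 (DIV14) and mCherry (DIV7) as further readouts. Input DNA served as background, per the labels' protocols, and was not analysed here. The submitters' processing notes name MACS 1.4.2, Bowtie 1.3.0, ChIPseeker 1.26.2 and SAMtools 1.9. The build, and what each tool did, is not given in the sources used here. The caller is uncertain, since MACS 1.4.2 writes another layout. Lists are 1 per library, without pooling. The deposited score is the whole-number part of 10 times -log10 p, the deposited fold is a ratio of pileup to local background, and the deposited -log10 values are those of the p-value and q-value. No list holds a p above 0.05. The remaining deposited column, the summit offset, is in bp.

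Positions were read as GRCm38 from the scaffold names, with the RefSeq table of GRCm38.p6. Pileup and background were solved from fold and p, assuming fold is pileup plus 1 over background plus 1 and p a Poisson tail, within 0.001. Pileups above a set limit were not searched. Ties at the equal-size limit (30845 peaks, of which 12436 were kept) were ordered by fold and then at random with a fixed seed. Python 3.11.15, pandas 2.3.3, numpy 2.4.6 and scipy 1.17.1 were used, and the counting steps were tested on simulated data. Named gene ends are the first 10 by p that were shared, MICAL1-M1 only and control only (the last 2 without a base of the other list), and list members among the first 100. Some members that these rules name are not reported here. Named bodies, 1 Mb bins and places outside genes are the first 5. The members and gene lists were chosen with earlier results of these data known. Of 20665 genes, 16457 had a start in the RefSeq promoter table. Alternatives were other list sizes, thresholds, overlap rules and windows.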

Additional observations from a re-analysis of the deposited data

How the results depend on the processing

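No paired analysis was possible because each group is 1 library, and no replicate could be left out. With the lists cut to equal size by p, 18.7% of the control peaks and 18.9% of the MICAL1-M1 peaks were shared, and the shares at gene ends were 24.8% of the shared, 6.45% of the control-only and 3.86% of the MICAL1-M1-only peaks. In the same order, cutting by fold gave 18.1%, 18.3%, 24.3%, 6.71% and 3.69%, and a p of at most 0.01 gave 20.5%, 17.2%, 28.4%, 8.15% and 4.51%. Settings chosen after seeing the data dealt with peaks tied at the limit: ordering them by width gave 19.1%, 19.4%, 24.6%, 6.42% and 3.89%, leaving them out 17.8%, 20.6%, 25.8%, 6.45% and 4.19%, and keeping all of them 20.2%, 17.2%, 23.6%, 6.43% and 3.53%. Counting a peak as shared by overlap of 50% of both peaks gave 8.14%, 5.60%, 24.9%, 8.56% and 5.37%, and by summits within 200 bp 9.12%, 6.27%, 23.8%, 8.50% and 5.3%. With a q of at most 0.05 on both sides 4.47% and 29.4% were shared, and 16.9% and 17.2% of the strongest 4000. With a 3 kb window the shares at gene ends were 31.9%, 11.4% and 7.82%, and with 500 bp 16.5%, 4.07% and 1.87%. Shared peaks were at gene ends more often than control-only peaks, and these more often than MICAL1-M1-only peaks, in each setting with gene-end shares given here; these shares were not computed for a q of at most 0.05 or the strongest 4000. Genes occupied in both lists numbered 8869 with 3 kb and 3383 with 500 bp. At a q of at most 0.05 the counts were 103 in both, 187 in MICAL1-M1 only and 1746 in the control only. The cause of these shifts was not tested, beyond the smaller or larger lists and windows themselves. Few fragments stand under most peaks, medians of 9 and 7, so a peak missing from a list does not show that ATRX was absent.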
